A study of Mus musculus with 2 samples.

Results

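Chromosome 1 carried 510 of the 4117 USP21 peaks in the list (12.4%), more than any other chromosome. The peaks were selected by their chromosome name alone. Chromosome 1 itself was chosen from earlier results on this list in which its peak count was already known, so its count and density are given here as a description, with no test. All came from a single library of chromatin immunoprecipitation sequencing (ChIP-Seq), in which an anti-Flag antibody was used on E14 cells expressing Flag-USP21. E14 is a mouse embryonic stem cell (mESC) line, kept here without feeder cells in medium with serum and leukaemia inhibitory factor. The series also held 1 input library without antibody, of which no file was analysed here. According to the methods, Flag-USP21 lines were made by inserting the tagged gene behind a CAG promoter at the Rosa26 locus and expanding single colonies. The peaks therefore reflect an added, tagged protein in a cloned line, not the endogenous enzyme. There were no replicates, and peaks of 1 library are not replicates of each other. All intervals below cover counting error across peaks only.

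USP21 is a deubiquitinase, an enzyme that removes ubiquitin from proteins. One of its substrates is histone H2A, whose ubiquitination on lysine in the C-terminal tail is laid down by polycomb repressive complexes at silent genes. The study asked where USP21 sits on chromatin in mESCs and how far its targets are shared with the pluripotency factor Nanog, which USP21 stabilises.

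Positions are 1-based and in the build of the list, which the labels give as mm9. The chromosome 1 peaks bear on this directly. The last of them ended at 196669983, which is 1198012 bp past the end of chromosome 1 in GRCm38 (195471971 bp), and 4 peaks lay beyond that end. An mm9 genome and annotation were not used here, so the sequence under the peaks, the nearest genes and the distance to Lefty1 were not analysed here. Lefty1 is the gene on chromosome 1 among those the study examined by ChIP-qPCR, and encodes an inhibitor of Nodal signalling.

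The density of peaks on chromosome 1 was 2.66 per Mb, measured on the 191.909 Mb of GRCm38 sequence without gaps, as an approximation. The 18 other autosomes together held 3429 peaks, or 1.56 per Mb, so that chromosome 1 was 1.71-fold denser (95% interval 1.55 to 1.88). Among the 19 autosomes 1 was denser, chromosome 14 at 3.52 per Mb, and 17 were less dense. The lowest density was 0.979 per Mb on chromosome 19. The next ones below chromosome 1 were chromosome 8 (2.21 per Mb), chromosome 6 (2.06 per Mb) and chromosome 11 (1.99 per Mb). Against the 14 autosomes other than these and chromosome 14, the ratio was 2.06 (1.86 to 2.27).

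**Figure D1:**
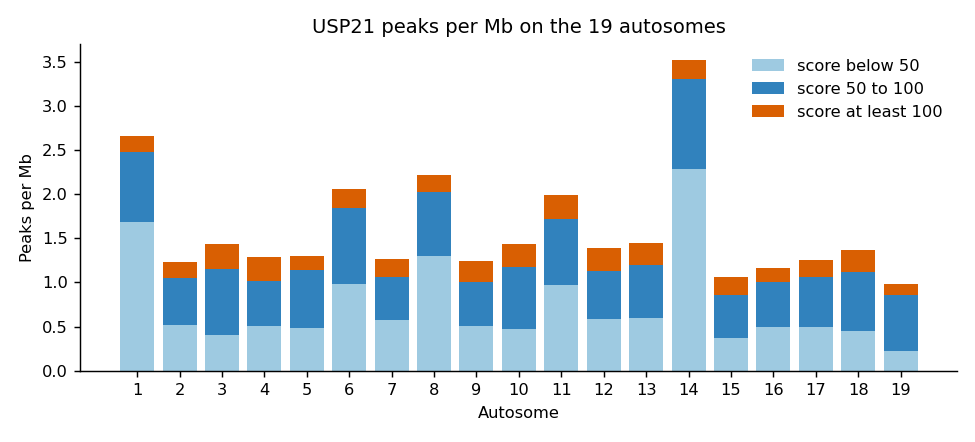
Peaks per Mb (y axis) on each of the 19 autosomes (x axis), with the bar divided by peak score into below 50, 50 to 100 and at least 100. Chromosome 1 reached 2.66 peaks per Mb, of which 1.68 had a score below 50 and 0.182 a score of at least 100; among the 19 autosomes only chromosome 14 was taller.

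The excess on chromosome 1 lay in the weak peaks. The score is a value per peak from the authors' peak caller. In the MACS14 layout it is 10 times the negative log10 of a p-value, so that 50 stands for 1e-05 and 100 for 1e-10. With scores of 40 to 45, chromosome 1 held 192 peaks and was 2.44-fold denser than the 18 other autosomes (2.07 to 2.85). Between scores of 45 and 50 the excess was similar at 2.42-fold (1.99 to 2.92), and between 50 and 60 it was 1.44-fold (1.12 to 1.82). It came to 1.16 (0.860 to 1.55) between scores of 60 and 80, and to 0.903 (0.550 to 1.41) between 80 and 100. Above that, 20 peaks scored from 100 to 150, a ratio of 0.867 (0.521 to 1.37), and 15 peaks scored higher, a ratio of 0.773 (0.425 to 1.30). From a score of 60 upwards every one of these intervals included 1, so an excess or a deficit of strong peaks on chromosome 1 was not detectable at these counts. Chromosomes 6, 8, 11 and 14 had a similar pattern. Below a score of 50 they held 0.977, 1.30, 0.968 and 2.29 peaks per Mb, against 0.489 on the 14 remaining autosomes. At a score of at least 100 they held 0.212, 0.191, 0.269 and 0.222 per Mb, against 0.221. Relative to those 14, chromosome 1 was 3.74-fold denser at scores of 40 to 45 and 1.70-fold denser at 50 to 60.

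The scores on chromosome 1 were lower as a set. Their median was 47.0 (95% interval 45.99 to 47.89), with quartiles of 43.64 and 55.5. On the 18 other autosomes the median was 52.23 (51.46 to 53.05), with quartiles of 44.74 and 75.77. A score below 50 belonged to 323 of the 510 peaks, or 63.3% (exact interval 59.0 to 67.5%), where 47.0% of the peaks on all autosomes had one. A score of at least 100 belonged to 35 peaks, or 6.86% (4.83 to 9.42%), beside 13.3% on all autosomes. On both measures chromosome 14 was the 1 autosome more extreme than chromosome 1, with 65.0% and 6.31%. Chromosome 8 was close to chromosome 1, with 58.6% (52.6 to 64.5%) and 8.63% (5.61 to 12.6%). Its median score was 47.2 (46.14 to 49.33), and all 3 intervals overlapped those of chromosome 1. Chromosome 1 also supplied 4 of the 100 highest-scoring peaks of the list, beside 12.4% of all peaks in it. As stated above, a deficit of strong peaks in density was not detectable at these counts. The lowest scores on chromosome 1 were 40.09, 40.09 and 40.13, next to the lower limit of the list at 40. The peaks around the lines drawn here scored 49.98 and 50.04, and 99.48 and 100.22, so that these classes are ranges of a continuum and not types of peak.

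The highest scores on chromosome 1 belonged to a pair of adjacent peaks close to its distal end. The higher of them spanned 679 bp (chr1:194491621-194492299) and scored 590.34, rank 17 in the whole list. Its neighbour spanned 662 bp (chr1:194490920-194491581) and scored 453.48. Only 39 bp separated these peaks, which together covered 1380 bp and were the closest pair on the chromosome, with 709.5 bp between their midpoints. Of the 35 peaks scoring 100 or more, 3 were wider than 300 bp, and this pair accounted for 2 of them.

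The next score, 443.84, belonged to a peak of 74 bp (chr1:44668476-44668549), and the one after it, 413.06, to a peak of 80 bp (chr1:101358236-101358315). Both were narrower than nearly all peaks on the chromosome, and their nearest peaks were 156213 and 56750.5 bp away. A wide drop followed to a score of 248.97, in a peak of 233 bp (chr1:71024143-71024375). Next came a peak of 172 bp (chr1:98820014-98820185, score 225.06) and a peak of 174 bp (chr1:11966632-11966805, score 220.16). The remaining 3 of the 10 highest were a peak of 87 bp (chr1:77431041-77431127, score 215.90), a peak of 397 bp (chr1:186854716-186855112, score 200.76) and a peak of 172 bp (chr1:146625554-146625725, score 178.47). These 10 peaks had a median width of 173 bp, and 3 of them were under 100 bp.

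By width, the peaks on chromosome 1 resembled those elsewhere at the median and differed at the narrow end. The median was 145 bp on chromosome 1 (143 to 147 bp) and 145 bp on the 18 other autosomes (144 to 146 bp). The quartiles were 130 and 157 bp on chromosome 1 against 122 and 160 bp elsewhere. Peaks under 100 bp made up 7.25% of the chromosome 1 peaks (37 peaks, 5.16 to 9.86%) and 13.4% of the others (12.3 to 14.6%). Chromosome 14 had a lower share at 5.84%, and 17 autosomes had a higher one, up to 23.1% on chromosome 13. The nearest above chromosome 1 was chromosome 8 at 8.99% (5.90 to 13.0%), with overlapping intervals.

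Width and score class went together on this chromosome. Of the 323 peaks with a score below 50, 1 was under 100 bp, and the middle of the widths ran from 134 to 154 bp. Of the 152 peaks with a score of 50 to 100, 27 were under 100 bp (17.8%, exact interval 12.0 to 24.8%), close to the 18.7% on the 18 other autosomes. Of the 35 peaks that scored 100 or more, 9 were under 100 bp (25.7%, 12.5 to 43.3%), beside 35.5% elsewhere (31.2 to 39.9%). These strong peaks had a median width of 172 bp (119 to 210 bp), against 136 bp (125 to 146 bp) on the other autosomes, and the intervals overlapped. The narrow peaks were thus found almost wholly among scores of 50 and above. This was not particular to chromosome 1, since only 1.44% of the peaks below 50 were under 100 bp on the 18 other autosomes. Across the 510 peaks Spearman's rho between score and width was −0.06, and across the 3429 peaks of the other autosomes it was −0.16. The shares by score class and these values of rho are descriptions, since the score is computed from tags within the width.

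**Figure D2:**
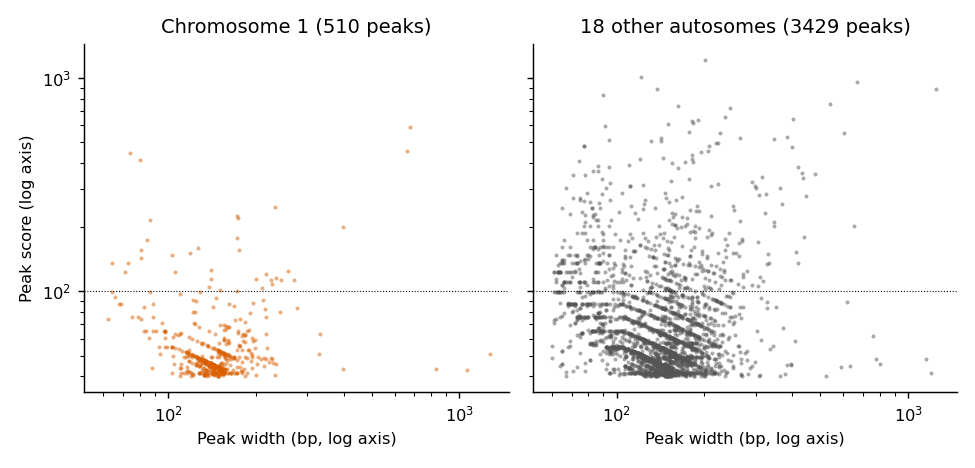
Peak score (y axis, log) against peak width in bp (x axis, log), 1 point per peak, for chromosome 1 (left, 510 peaks) and the 18 other autosomes (right, 3429 peaks); the dotted line marks a score of 100. On chromosome 1, 35 peaks lie on or above the line, and most points form a dense patch below a score of 50 near 145 bp.

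The 3 widest peaks on chromosome 1 had low scores, whereas the next in width were the adjacent pair with the highest scores. The widest spanned 1268 bp (chr1:87501319-87502586) and scored 50.98. It was followed by peaks of 1062 bp (chr1:87397498-87398559, score 42.59) and 829 bp (chr1:85098973-85099801, score 43.49). All 3 lay within a stretch from 85 to 88 Mb, and each scored far below the adjacent pair at the distal end. By contrast, the narrowest peaks with a score of at least 100 spanned 64 bp (chr1:97952061-97952124, score 135.54), 71 bp (chr1:89331239-89331309, score 123.03) and 73 bp (chr1:84301210-84301282, score 135.54).

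Next, the position of the peaks along chromosome 1 was examined. The first peak started at 3564524 (168 bp, score 41.47) and the last ended at 196669983 (144 bp, score 43.82). In 10 Mb bins, leaving out the first and the last, the counts ran from 17 peaks at 60 to 70 Mb to 45 peaks at 110 to 120 Mb, with a median of 23.5. The bins on either side of the fullest one held 34 peaks (100 to 110 Mb) and 35 peaks (120 to 130 Mb). A separate high bin, with 36 peaks, was found at 170 to 180 Mb, between bins of 18 and 20 peaks. At finer scale, the fullest 1 Mb bins held 8 peaks, and 18 of 194 bins held none.

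**Figure D3:**
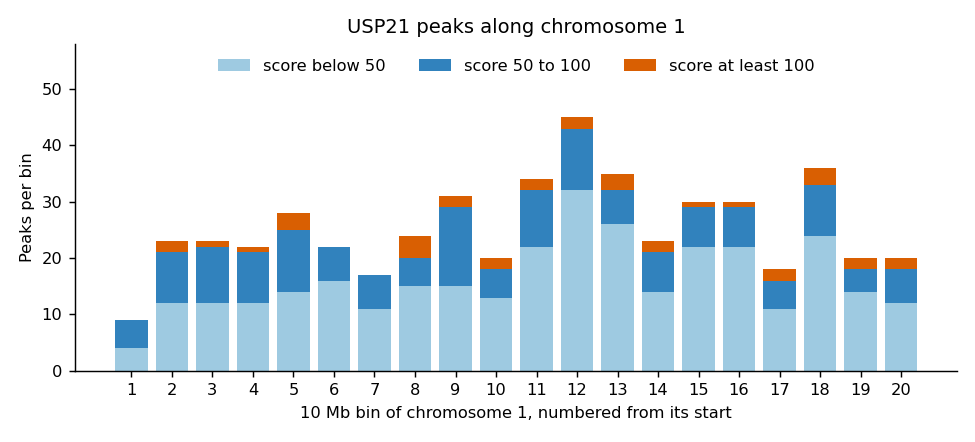
Number of peaks (y axis) in each of the 20 consecutive 10 Mb bins of chromosome 1, numbered from its start (x axis), divided by peak score. The counts peak in bins 11 to 13 with 34, 45 and 35 peaks, whereas peaks with a score of at least 100 number at most 4 in any bin.

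The stretch at 96 to 133 Mb is called the densest interval of chromosome 1 here. It was picked by a likelihood ratio that weighs length as well as density, so its own ratio is not tested. Shorter stretches within it were denser, such as 110 to 120 Mb with 45 peaks. With 142 peaks the whole interval reached 3.84 per Mb, while the remainder of chromosome 1 had 2.34 per Mb, a ratio of 1.64 (1.34 to 1.99). Peaks with a score below 50 gave a ratio of 1.79 (1.399 to 2.29) and those with 50 to 100 gave 1.32 (0.880 to 1.93). Strong peaks numbered 10 inside and 25 outside, and their ratio was 1.70 (0.727 to 3.66). Peaks inside and outside the interval had the same median width of 145 bp, and the median score was 46.3 (45.28 to 48.63) inside and 47.1 (45.99 to 48.29) outside. Leaving the interval out lowered the density of chromosome 1 relative to the 18 other autosomes from 1.71-fold to 1.53-fold (1.37 to 1.70), so an excess was present outside the interval too.

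In the evenness of its filling, chromosome 1 ranked in the middle of the autosomes. The variance of the count per 1 Mb bin was 1.23 times its mean on chromosome 1. This ratio was higher on 8 autosomes and lower on 10, from 0.767 on chromosome 19 to 4.96 on chromosome 14. On chromosome 6 it was 2.62, on chromosome 8 1.395 and on chromosome 11 0.949. Bins without a peak made up 9.28% on chromosome 1 and from 14.3% (chromosome 11) to 36.6% (chromosome 4) on the other autosomes, a share that also depends on the density itself.

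The strength of the peaks also varied along the chromosome. The range from the first to the last peak was divided into 4 stretches of equal length, which held 109, 110, 164 and 127 peaks from the proximal to the distal end. Scores below 50 made up 51.4% of the most proximal stretch (exact interval 41.6 to 61.1%), 61.8% of the next (52.1 to 70.9%), 69.5% of the one after it (61.9 to 76.5%) and 66.9% of the most distal (58.03 to 75.02%). The median score was 49.7 in the most proximal stretch and 45.5 in the most distal, and their intervals (47.03 to 53.75 and 44.50 to 48.29) overlapped. In the same order the stretches held 7, 8, 10 and 10 peaks scoring 100 or more. They were found in 17 of the 20 bins of 10 Mb, from 11966632 to 194492299. The longest stretch without one reached from 45008139 to 71024143, over 26.0 Mb, and covered the bins of 50 to 60 and 60 to 70 Mb.

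The spacing of the peaks followed their density. The median distance between neighbouring midpoints was 235 kb on chromosome 1 (200 to 264 kb), with quartiles of 81.8 and 511 kb. It was 381 kb on the 18 other autosomes (356 to 399 kb), and only chromosome 14, at 97.5 kb, had a shorter one. Relative to the mean spacing of each chromosome, however, chromosome 1 lay in the middle. Its median was 0.618 times its mean, a ratio that was higher on 10 autosomes and lower on 8, down to 0.341 on chromosome 14.

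Long gaps were rare. Of the 509 spacings on chromosome 1, 40 were over 1 Mb (7.86%), against 21.3% on the 18 other autosomes. This share depends on the density itself, as the mean spacing was 379 kb on chromosome 1 and 646 kb on the others. The longest stretch without a peak measured 4100409 bp, from 90762741 to 94863151. It was followed by 3207443 bp from 66509842 to 69717286, and 2386615 bp from 5374295 to 7760911. The longest one ended just before the densest interval, and the second lay within the long stretch without a strong peak. Assembly gaps of mm9 were not analysed here.

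**Figure D4:**
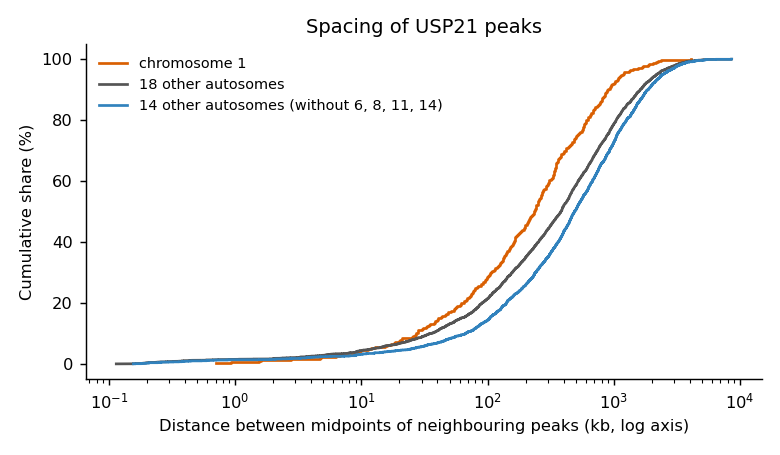
Cumulative share of spacings in percent (y axis) against the distance between midpoints of neighbouring peaks in kb (x axis, log), for chromosome 1, the 18 other autosomes and the 14 of them other than 6, 8, 11 and 14. The chromosome 1 curve lies to the left of the others over most of its range, with a median of 235 kb against 381 and 490 kb.

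Close neighbours were about as frequent on chromosome 1 as elsewhere. A neighbour within 10 kb was found for 45 of the 510 peaks, or 8.82% (6.51 to 11.6%), beside 8.49% on the 18 other autosomes (7.57 to 9.47%). On the 14 autosomes of lower density this share was 6.04% (5.08 to 7.12%). Among single autosomes it was higher than on chromosome 1 on 6, up to 20.1% on chromosome 14, and lower on 12. No allowance was made for the density of each chromosome. At 1 kb the share was 1.18% on chromosome 1 (6 peaks, 0.433 to 2.54%), lower in value than the 2.92% on the 18 other autosomes (2.38 to 3.54%), with overlapping intervals. At 50 kb the shares were 31.0% (27.0 to 35.2%) and 22.6% (21.2 to 24.0%).

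The 45 peaks formed 22 runs, of which 21 were pairs and 1 a run of 3, and in 10 of them the midpoints lay less than 5 kb apart. All members scored below 50 in 7 runs, and 4 runs contained a peak with a score of at least 100. The run of 3 lay within 9588.5 bp and was made of narrow peaks only, of 81 bp (chr1:173031978-173032058, score 143.74), 79 bp (chr1:173032887-173032965, score 75.77) and 86 bp (chr1:173041564-173041649, score 60.58). It lay in the high bin at 170 to 180 Mb. The other runs with a strong peak were the adjacent pair at the distal end and 2 pairs in which a strong peak had a weaker companion. In the first of these, a peak of 170 bp (chr1:11956916-11957085, score 73.53) lay 9718 bp from the strong peak at 11966632. In the second, a peak of 94 bp (chr1:97950505-97950598, score 50.86) lay 1541 bp from the narrowest strong peak, within the densest interval. Peaks in runs had a median score of 48.2 (45.32 to 53.25), against 46.9 (45.93 to 47.72) for the 465 peaks alone.

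Finally, the number of tags behind the peaks was examined, as far as the score reveals it. A tag is a mapped read. Many scores of the list equal a Poisson tail at 1 background rate, fitted here on all 4117 peaks at 8.129 tags per kb with a smallest window of 104 bp, or 0.845 tags in that window. This is a reading of the score that the list does not state. On chromosome 1, 224 peaks (43.9%, exact interval 39.6 to 48.4%) had such a score, beside 55.4% on the 18 other autosomes (53.7 to 57.1%) and 67.1% on the 14 of lower density (65.1 to 69.1%). Only 3 autosomes had a lower share, chromosome 8 at 41.0%, chromosome 11 at 39.4% and chromosome 14 at 19.4%. Next above chromosome 1 was chromosome 6 at 47.2%.

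Among the 224 peaks, the matching tail was the one beyond 7 tags for 133 (59.4%), against 40.1% of the 1899 such peaks elsewhere. For 38 peaks (17.0%) it was the tail beyond 8 tags, close to the 15.4% elsewhere. A tail beyond 20 or more was matched by 4 peaks (1.79%), against 5.74% elsewhere. The highest was a tail beyond 33 tags, in the peak of 80 bp with a score of 413.06. Since the rate is fixed, this number restates the score and width of a peak and is no separate measure of it. For the adjacent pair at the distal end and the peak of 74 bp no tag number was recovered.

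The excess on chromosome 1 was larger for the peaks that were off the background rate. These numbered 286, or 1.49 per Mb, and were 2.15-fold denser than on the 18 other autosomes (1.89 to 2.44) and 3.51-fold denser than on the 14 of lower density (3.05 to 4.03). Peaks at the rate were 1.35-fold denser in both comparisons (1.17 to 1.56 and 1.16 to 1.55). The mean behind the peaks off the rate was not recovered, except that 43 of the 286 had the score of a tail at a fixed mean of 1.695 tags. This was not particular to chromosome 1, since 259 of 1530 peaks off the rate on the 18 other autosomes matched that mean. As shares of all peaks these were 8.43% and 7.55%. That mean was picked because it matched the most peaks off the rate in the whole list, so these matches are no separate evidence for it. The share at the rate was also lower in value on chromosome 1 within each score class. At a score of at least 100, 15 of 35 peaks were at the rate on chromosome 1 (42.9%, 26.3 to 60.6%), against 65.0% of 488 elsewhere (60.5 to 69.2%), and the intervals just overlapped. For scores of 50 to 100 the shares were 54.6% (46.3 to 62.7%) and 62.2% (59.6 to 64.7%), and below 50 they were 39.0% (33.7 to 44.6%) and 46.0% (43.5 to 48.6%).

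**Figure D5:**
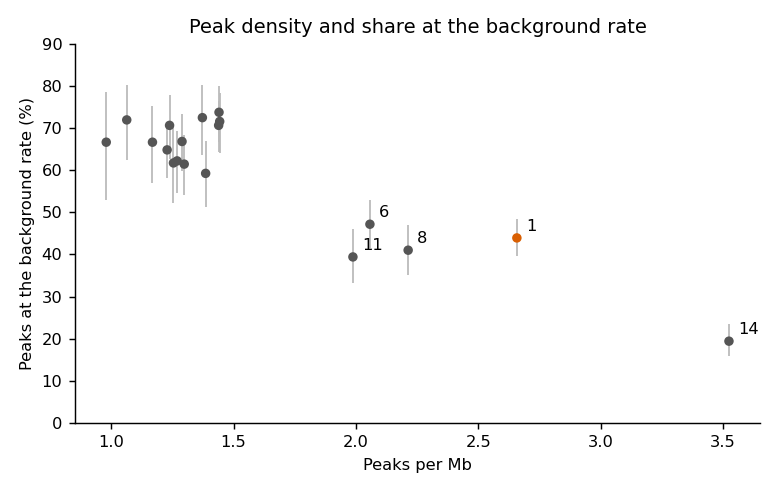
Share of peaks at the background rate in percent (y axis, with exact 95% intervals) against peaks per Mb (x axis), 1 point per autosome, with chromosomes 1, 6, 8, 11 and 14 named. Chromosome 1 lies at 43.9%, among the 5 densest autosomes, which have the lowest shares; the points share 1 library and 1 list.

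The share at the rate varied along the chromosome. In the 4 stretches of equal length it was 52.3% (42.5 to 61.9%), 40.9% (31.6 to 50.7%), 50% (42.1 to 57.9%) and 31.5% (23.5 to 40.3%) from the proximal to the distal end, so that the intervals of the outermost stretches did not overlap. It was 53.5% inside the densest interval (44.97 to 61.9%) and 40.2% outside (35.2 to 45.4%), and these intervals just overlapped. By 10 Mb bins the highest shares were 65.2% at 10 to 20 Mb (15 of 23 peaks), 64.7% at 100 to 110 Mb (22 of 34) and 62.2% at 110 to 120 Mb (28 of 45). The lowest, 27.8%, was shared by the bins at 160 to 170 Mb (5 of 18) and 170 to 180 Mb (10 of 36). Within the densest interval, the bin at 120 to 130 Mb had 34.3% (12 of 35). These bins were picked as extremes, their counts are small and no intervals were computed, so differences between single bins are not established.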

How the data were processed

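ChIP-Seq of Flag-USP21 and of an input was done in E14 mESCs, with 1 library each, grouped by sample title. Per the labels, CASAVA 1.4 and Bowtie 0.12.7 were used with build mm9, whereas the methods name mm10 for alignment, uniquely mapped reads, and a later MACS release in broad mode with IgG controls. The list has the MACS14 layout, and 4 of its chromosome 1 peaks lay beyond the end of that chromosome in GRCm38, the assembly of mm10. It is therefore not the mm10 output in broad mode that the methods describe. Which control was used, and the exact run, are not settled by these sources. The deposited value of each peak is a score, written by the authors' peak caller. Library depth is unknown. BED starts were made 1-based. Chromosome 1 and the lists of named peaks were chosen with earlier results of these data known. The named peaks are the 10 highest by score, the 3 widest, the 3 narrowest with a score of at least 100, runs of 3 or more, the closest pair, the first, the last and the 3 longest empty stretches. The 4 stretches, score steps and runs with a strong peak were added later. Chromosome lengths without gaps are those of GRCm38. Medians have order-statistic and shares exact Clopper-Pearson 95% intervals, and density ratios have exact intervals conditional on the total. Neighbours are midpoints at most 10 kb apart. The densest interval is the run of 1 Mb bins, 5 Mb or longer and covering no more than 80% of them, with the highest likelihood ratio. Scores were matched to Poisson tails within 0.015. No test between samples was possible, and none was made between peaks. The search for the densest interval, the fit of the background rate, the recovery of tag numbers and the median interval were tested on simulated data. The other steps were not. All were computed with scipy 1.17.1, numpy 2.4.6 and pandas 2.3.3 under Python 3.11.15, and drawn with matplotlib 3.10.9.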

Additional observations from a re-analysis of the deposited data

How the results depend on the processing

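Of 34 alternatives over 9 values of chromosome 1, 18 left the value within its interval and 16 did not. The density of chromosome 1 relative to the 18 other autosomes was 1.71 with all peaks. It was 1.08 with scores of at least the median of the list and 0.824 with scores of 100 or more. With scores of 50 or more, an alternative chosen after seeing the data, it was 1.13 (0.966 to 1.31). Thus the excess in density depends on the lower score limit of the list. It was 1.53 without the densest interval and 2.06 against the 14 autosomes other than 6, 8, 11 and 14. When the densest interval was searched again, the ratio was 2.23 with scores of at least the median. With scores of at least 100 it was 2.26 (0.964 to 6.12), an interval that included 1. Each search can only return a ratio above 1, and the positions found are not given here. These ratios therefore do not show that the stretch at 96 to 133 Mb stood out among stronger peaks. With fewer peaks the median spacing was 676 kb from the median score upwards and 4050 kb from 100 upwards, and the share with a neighbour within 10 kb was 4.14% and 5.71%. At other distances this share was 1.18% (1 kb) and 31.0% (50 kb). The median width was 172 bp with scores of at least 100. The share at the background rate was 53.8% with scores of at least the median and 52.4% with scores of at least 50, the latter added after seeing the data; the cause was not tested. No paired analysis was possible because the ChIP and input samples each had 1 library and no test was made. With 35 peaks of a score of at least 100, differences in strong peaks are limited by counting error.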
